A study of Mus musculus with 2 samples.

Results

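The microRNAs (miRNAs) examined here are the arms of the miR-199 and miR-214 hairpins, which were followed in extracellular vesicles (EVs) of mouse serum. EVs are small lipid-bound particles shed by most cells, and they carry miRNAs through the circulation. The 6 names mmu-miR-199a-3p, mmu-miR-199a-5p, mmu-miR-199b-3p, mmu-miR-199b-5p, mmu-miR-214-3p and mmu-miR-214-5p (the prefix marks mouse and is left out below) were looked up in the miRNA column of both deposited tables, and they matched 5 of 1847 listed entries, because miR-199a-3p and miR-199b-3p share 1 entry. The entries were found by name, with no threshold on a measured value. All 5 entries were above the floor of 10 counts in both libraries, so none was lost to low values.

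One library came from iFIRKO mice, which carry Adipoq-CreERT2, a tamoxifen-inducible Cre recombinase driven by the adiponectin promoter, together with Insr flox/flox alleles, so that the insulin receptor gene is deleted in adipocytes after tamoxifen. The other library came from control mice, whose genotype is WT in the labels, while the methods of the study describe them as IR flox/flox mice without Cre. Both groups were male and 7 weeks old at the first injection, and they were given 5 daily injections of 100 mg/kg tamoxifen. Serum was taken at day 3 after the last injection. Serum of several mice was pooled for each library. With 1 library per group there was no replicate and no test between genotypes, so the intervals below cover counting error in these libraries and nothing about the spread among animals.

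The genes behind these arms are known as mesenchymal. Mir199a-2 and Mir214 are processed from 1 long non-coding RNA, Dnm3os, which is transcribed in mesenchymal cells and is required for normal skeletal growth. The miRNAs of this transcript are abundant in fibroblasts and rise in fibrotic tissue. In each cell a hairpin is cut into a duplex, and 1 arm is usually loaded into an Argonaute protein while the other is degraded. The seed, bases 2 to 8 of the loaded arm, pairs with target mRNAs. The tables record mature arms and give no cell of origin, so the mesenchymal source of the EV copies was not measured.

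The mature sequences are shown because they decide which entries can be told apart and which targets an arm can share. Of the 6 names, 5 were matched in RefSeq (GRCm38.p6), and miR-199b-5p was not. Each sequence is written 5′ to 3′ with the seed in capitals.
miR-199a-3p: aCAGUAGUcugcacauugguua
miR-199b-3p: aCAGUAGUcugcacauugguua
miR-199a-5p: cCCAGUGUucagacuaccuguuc
miR-214-3p: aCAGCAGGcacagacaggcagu
miR-214-5p: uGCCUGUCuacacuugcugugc
The 3p arms of miR-199a and miR-199b were identical over all 22 bases, the tables hold 1 value for both, and their shared seed was CAGUAGU. miR-199a-5p was 23 bases long and had the seed CCAGUGU. The seeds of miR-214-3p (CAGCAGG) and miR-214-5p (GCCUGUC) differed from those of miR-199, so the matched arms fell into 4 seed groups.

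The arms come from 4 hairpins at 3 places in the genome, each on the strand opposite to a dynamin gene. In GRCm38, the assembly also called mm10 in the submitters' processing notes, Mir199a-2 lies at chr1:162217814-162217923 and Mir214 at chr1:162223368-162223477, both on the plus strand, with 5444 bases between them. Both overlap an exon of Dnm3os (chr1:162217623-162225550) and lie opposite an intron of Dnm3. Mir199b lies at chr2:32318460-32318569 on the plus strand, opposite an intron of Dnm1. Mir199a-1 lies at chr9:21496495-21496564 on the minus strand, opposite an intron of Dnm2. The hairpins are given 5′ to 3′ with the mature arms listed by RefSeq in capitals, to show where each arm lies in its precursor.
Mir199a-2: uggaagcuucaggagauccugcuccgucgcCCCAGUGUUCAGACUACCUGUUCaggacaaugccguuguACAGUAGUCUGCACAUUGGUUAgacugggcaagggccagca
Mir199a-1: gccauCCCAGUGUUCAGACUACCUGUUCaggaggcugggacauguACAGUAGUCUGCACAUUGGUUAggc
Mir199b: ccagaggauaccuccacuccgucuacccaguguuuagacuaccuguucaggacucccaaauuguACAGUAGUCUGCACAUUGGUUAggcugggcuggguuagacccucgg
Mir214: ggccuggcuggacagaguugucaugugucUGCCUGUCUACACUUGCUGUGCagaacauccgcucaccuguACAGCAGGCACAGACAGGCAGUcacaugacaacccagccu
Because miR-199a-5p has 1 sequence at both of its loci and the 3p arm has 1 sequence at all 3 miR-199 loci, no count can be assigned to Mir199a-1 or Mir199a-2 alone, and the 3p count is a sum over miR-199a and miR-199b.

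The libraries differed in depth, with 3817902 counts for control and 2233498 counts for iFIRKO, a 1.71-fold difference. Each deposited value was a whole count divided by the depth, and it is given below as the recovered count and as counts per 1000000 (CPM). A read covers a whole mature miRNA, so CPM was compared between miRNAs without a correction for length. No miRNA reports the deletion of Insr, so each direction below rests on the labels, and these are in doubt. The study describes the overall direction of its serum EV-miRNAs, and that of the erythroid miRNAs it followed up, as the reverse of what the deposited tables hold under their labels. Whether the tables were exchanged was not tested, and the libraries are therefore named by their labels. If they were exchanged, each ratio below would become its inverse and each higher value a lower one, while the counts themselves would stay. The median miRNA had a 1.84-fold higher share of the iFIRKO-labelled library on the deposited scale (0.88 on the log2 scale), a shift that TMM scaling reduced to 0.029 and that would read 0.542-fold (-0.88 on the log2 scale) with the tables exchanged.

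The miR-199 3p arm was a major EV-miRNA in both libraries, whereas the other 4 entries were minor. The miR-199a-3p/miR-199b-3p entry, whose known targets include Mtor and Met, had 40468 counts in the control-labelled library and 24325 counts in the iFIRKO-labelled library. These correspond to 10599.5 CPM (95% interval 10496.5 to 10703.3) and 10891 CPM (10754.5 to 11028.7), so that the arm ranked 19 and 21 among all listed miRNAs. It held 96.1% of all miR-199 and miR-214 counts in either library. The iFIRKO over control ratio was 1.03 (95% interval 1.01 to 1.04) on the deposited scale, and it fell below 1 with miR-148a-3p as the reference (0.882), with either median of ratios and with TMM scaling (0.568). The difference on the deposited scale was thus smaller than the shift between scalings.

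miR-199a-5p, the opposite arm, which is known to target Cav1 in fibroblasts, had 1091 counts in the control-labelled library and 527 counts in the iFIRKO-labelled library. Its level was 286 CPM (269 to 303) and 236 CPM (216 to 257), and these intervals do not overlap. The ratio was 0.826 (95% interval 0.743 to 0.917), and the ratio was below 1 under each scaling tried, from 0.828 with equal totals to 0.453 with the median of ratios. It was the one member with a lower share of the iFIRKO-labelled library as deposited, and with the tables exchanged its ratio would be 1.21 and the other 4 entries would be the lower ones.

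miR-199b-5p, the corresponding arm of the Mir199b hairpin, had 176 counts in the control-labelled library and 141 counts in the iFIRKO-labelled library. Its level was 46.1 CPM (39.5 to 53.4) and 63.1 CPM (53.1 to 74.5), with overlapping intervals. The ratio was 1.37 (95% interval 1.09 to 1.72) as deposited and 0.758 with TMM scaling. miR-199a-5p and miR-199b-5p are close relatives, and how reads matching both were divided is not stated, which leaves some uncertainty in the split between them.

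Both arms of miR-214 were scarce. miR-214-3p, which is known to target Ezh2, had 267 counts in the control-labelled library and 217 counts in the iFIRKO-labelled library, or 69.9 CPM (61.8 to 78.8) and 97.2 CPM (84.7 to 111). The intervals do not overlap, and the ratio was 1.39 (95% interval 1.16 to 1.67) as deposited and 0.769 with TMM scaling. miR-214-5p, the passenger arm, had 119 and 106 counts, or 31.2 CPM (25.8 to 37.3) and 47.5 CPM (38.9 to 57.4). Its ratio was 1.52 (95% interval 1.16 to 1.995), just past 1.5-fold as deposited, and 0.842 with TMM scaling. The 2 arms summed to 0.0101% of the control-labelled library and 0.0145% of the iFIRKO-labelled library.

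**Figure D1:**
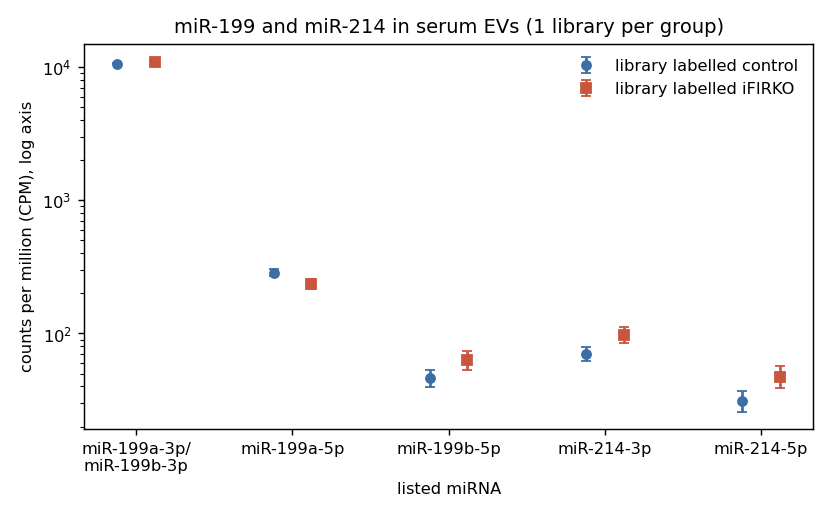
Level of each miR-199 and miR-214 entry in CPM on a log axis, with 1 point per library (circles, control; squares, iFIRKO) and bars for the exact 95% Poisson interval of the count. The shared 3p arm lies at 10599.5 and 10891 CPM, the other entries lie at 286 CPM or less, and the order of the 5 entries is the same in both libraries.

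The order of the levels was the same in both libraries, namely miR-199a-3p/miR-199b-3p, miR-199a-5p, miR-214-3p, miR-199b-5p and miR-214-5p. In the control-labelled library the intervals of neighbours in this order did not overlap. In the iFIRKO-labelled library those of miR-199b-5p (53.1 to 74.5 CPM) and miR-214-5p (38.9 to 57.4 CPM) did. Such an overlap does not decide whether their counts differed beyond counting error, which was not tested. Together the members made up 1.10% of the control-labelled library (95% Wilson interval 1.09 to 1.11) and 1.13% of the iFIRKO-labelled library (1.12 to 1.15).

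Against the whole set of EV-miRNAs, the miR-199 and miR-214 entries were compared by counts past a threshold. At the 1.5-fold threshold of the study, 1 of the 5 entries (miR-214-5p) was higher in the iFIRKO-labelled library, where 66.3% of all 1847 miRNAs were higher. None of the 5 was over 1.5-fold lower, against 3.03% of all miRNAs. These shares include miRNAs at the floor in 1 library, 76 in the control-labelled and 35 in the iFIRKO-labelled library. Their lowest value was taken as 1 count, so the 76 are part of the 66.3% and the 35 part of the 3.03%. No member was such an entry, and shares without them were not computed. The counts with the tables exchanged include them too. With the tables exchanged, miR-214-5p would be the 1 entry past 1.5-fold on the low side, beside 1225 of all miRNAs on the low side and 56 on the high side. As deposited, 4 of the 5 were higher at any size, against 88.1% of all miRNAs. The counting interval lay above 1 for 4 of the 5, against 63% of all miRNAs, and below 1 for 1 of the 5, against 6.17%. The median log2 ratio of the members was 0.45, a median ratio of 1.37, compared with 0.88 for all miRNAs. With TMM scaling the median of the members was -0.40.

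The ratio of a miRNA depended on its abundance in these libraries, so each member was read beside miRNAs of a similar mean count. miR-199a-3p/miR-199b-3p was 1 of 118 miRNAs averaging more than 1000 counts, whose median log2 ratio was -0.07. Of these, 75 had a lower ratio, and 34.7% had a counting interval above 1, as this entry did. The other 4 entries belonged to the class from 100 to 1000 counts, which had a median log2 ratio of 0.53 (a median ratio of 1.44) and in which 47% of 302 miRNAs were past 1.5-fold on the high side and 2.32% on the low side. The counting interval lay above 1 for 3 of these 4 entries, against 63.6% of the class, and below 1 for 1 of the 4, against 8.61%. Of the 301 miRNAs of this class above the floor in both libraries, 139 had a lower ratio than miR-199b-5p, 142 a lower ratio than miR-214-3p and 166 a lower ratio than miR-214-5p, so these 3 lay near the middle of this wide class. miR-199a-5p lay lower, with 23 of 301 below it. Within this class the ratio still changed with abundance, and it was split at 300 counts after the values were seen. In the range from 100 to 300 counts, which holds miR-199b-5p, miR-214-3p and miR-214-5p, the median ratio was 1.61 and all 3 lay below it, with 66, 69 and 91 of 216 miRNAs at a lower ratio. In the range from 300 to 1000 counts the median ratio was 1.05, 37 of 86 miRNAs had a lower share of the iFIRKO-labelled library, and 15 of 86 had a lower ratio than miR-199a-5p. These positions do not depend on the scaling, which shifts all miRNAs alike.

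**Figure D2:**
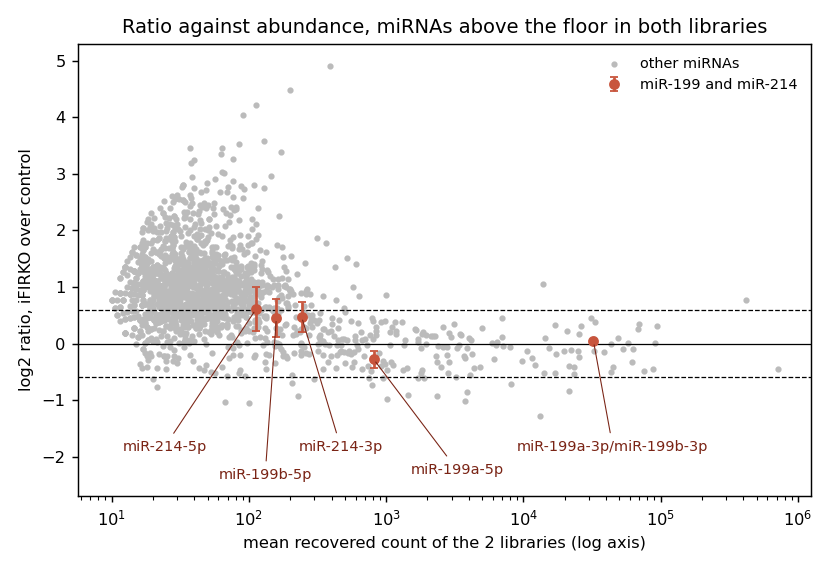
Log2 ratio of iFIRKO over control on the deposited scale against the mean recovered count (log axis) for miRNAs above the floor in both libraries. Red points with 95% counting intervals are the miR-199 and miR-214 entries, grey points are other miRNAs, and dashed lines mark 1.5-fold. miR-199b-5p, miR-214-3p and miR-214-5p lie inside the cloud of low-count miRNAs above 0, miR-199a-5p lies below 0, and the shared 3p arm lies near 0. TMM scaling would shift every point down by 0.85.

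The balance between arms and between related miRNAs was compared next, since a quotient of 2 counts within a library does not depend on the scaling between libraries. A total of 10 quotients were computed, and their intervals are not adjusted for that number. For miR-199, the 3p arm was divided by the sum of miR-199a-5p and miR-199b-5p. The 3p arm exceeded the 5p arms 31.9-fold in the control-labelled library (40468 to 1267 counts) and 36.4-fold in the iFIRKO-labelled library (24325 to 668 counts). The quotient was 1.14-fold larger in the iFIRKO-labelled library (95% interval 1.04 to 1.26). For miR-214, the 3p arm exceeded the 5p arm 2.24-fold in the control-labelled library and 2.05-fold in the iFIRKO-labelled library, and the change of 0.912-fold (95% interval 0.656 to 1.27) was not distinguishable from 1 at this depth. The 3p arm was therefore the more abundant one for both families and in both libraries, to a far greater extent for miR-199 than for miR-214.

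These arm balances were set beside those of other hairpins. In 72 pairs whose arms both reached a mean count of 100, 3 of which belong to the miR-199 and miR-214 families, the 3p arm exceeded the 5p arm in both libraries in 40.3%. Among the 69 other pairs, 8 had a larger 3p over 5p quotient than miR-199 in the control-labelled library and 6 in the iFIRKO-labelled library, whereas 22 exceeded miR-214 in either library. An interval that excludes 1 was common among these pairs. Of the 72 pairs, 25% had an interval above 1 and 25% had an interval below 1 for the change between libraries. Of the 69 other pairs, 45 changed by more than miR-199 did in either direction, 27 of them upward.

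**Figure D3:**
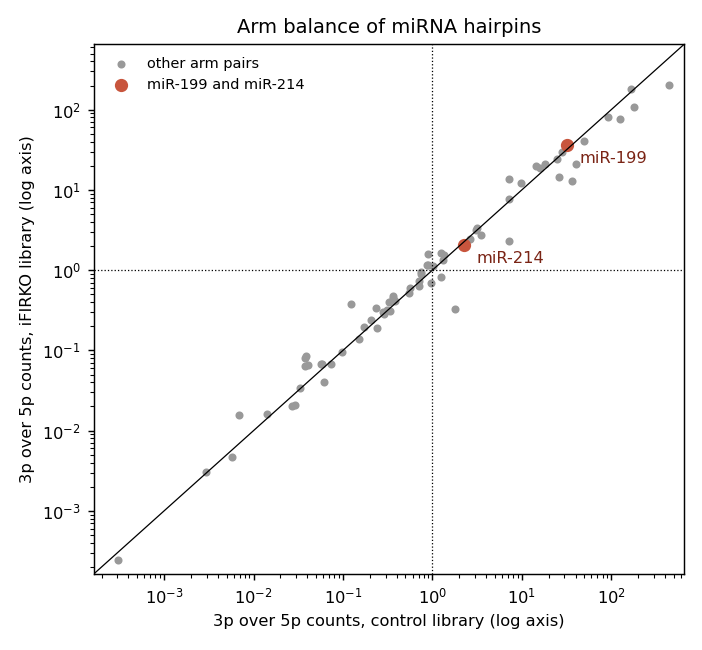
Counts of the 3p arm divided by counts of the 5p arm in the control-labelled library (x, log axis) and the iFIRKO-labelled library (y, log axis), with 1 point per arm pair and the line of equality. Dotted lines mark equal arms. miR-199 (31.9 and 36.4) lies near the upper end and miR-214 (2.24 and 2.05) lies just above equal arms, and both lie close to the line.

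The quotients that changed most involved miR-199a-5p. It made up 86.1% of the miR-199 5p counts in the control-labelled library (95% Wilson interval 84.1 to 87.9), and 78.9% in the iFIRKO-labelled library (75.6 to 81.8). The remaining 13.9% and 21.1% were miR-199b-5p. The quotient of miR-199a-5p over miR-199b-5p was 6.20 in the control-labelled library and 3.74 in the iFIRKO-labelled library, a change of 0.603-fold (95% interval 0.469 to 0.777). The quotient of miR-199a-5p over miR-214-3p, which can come from the same Dnm3os transcript, changed alike, from 4.09 to 2.43 (0.594-fold, 95% interval 0.481 to 0.735). In contrast, miR-199b-5p over miR-214-3p, which come from different chromosomes, was 0.659 and 0.650 (0.986-fold, 95% interval 0.734 to 1.32). This interval allows changes up to 1.32-fold and does not show that the 2 moved together.

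Relative to the abundant 3p arm, the scarce entries differed in direction. miR-199a-5p changed 0.804-fold (95% interval 0.722 to 0.894), miR-199b-5p 1.33-fold (1.06 to 1.67), miR-214-3p 1.35-fold (1.12 to 1.62) and miR-214-5p 1.48-fold (1.13 to 1.94). miR-199a-5p and the miR-214 arms thus changed in opposite directions relative to the 3p arm, although Mir199a-2 and Mir214 share a transcript. miR-199a-5p also arises from Mir199a-1, and the contributions of the 2 loci cannot be told apart. The entries also differ in abundance, along which ratios changed across all miRNAs, and the part of abundance in these quotients was not tested.

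**Figure D4:**
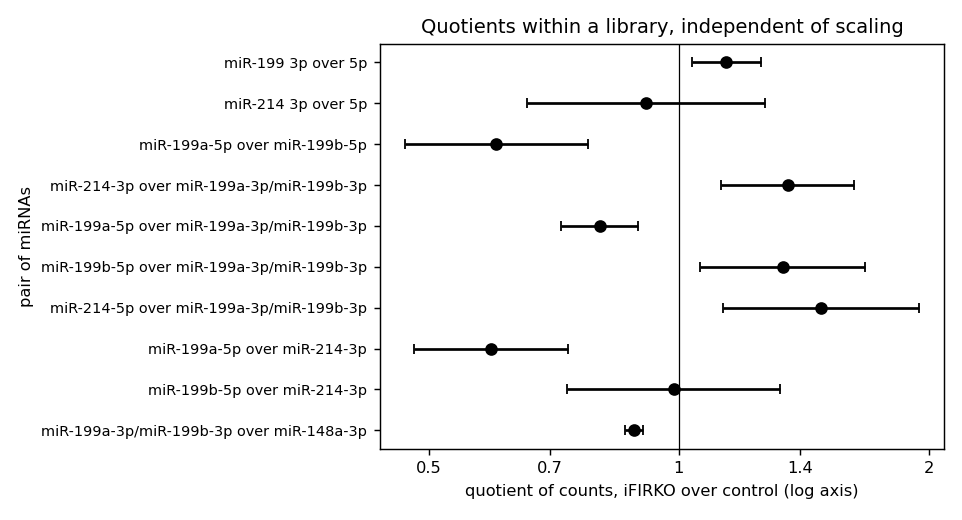
Change of 10 within-library quotients, iFIRKO over control, on a log axis, with exact 95% intervals from counts. Quotients with miR-199a-5p as the numerator lie below 1 (0.594 to 0.804), those of miR-199b-5p and the miR-214 arms over the 3p arm lie above 1 (1.33 to 1.48), and the intervals of miR-214 3p over 5p and of miR-199b-5p over miR-214-3p include 1.

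The scaling of the libraries decided the direction of 4 of the 5 ratios. miR-148a-3p, the reference chosen by the study, had 24524 counts (6423 CPM) in the control-labelled library and 16705 counts (7479 CPM) in the iFIRKO-labelled library, a ratio of 1.16 (95% interval 1.14 to 1.19). Dividing by it left miR-199b-5p (1.18), miR-214-3p (1.19) and miR-214-5p (1.31) above 1 and placed the 3p arm (0.882) and miR-199a-5p (0.709) below 1. With TMM factors, which divided every ratio by 1.81, all 5 entries were below 1, and the 3p arm (0.568) and miR-199a-5p (0.457) were over 1.5-fold lower.

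**Figure D5:**
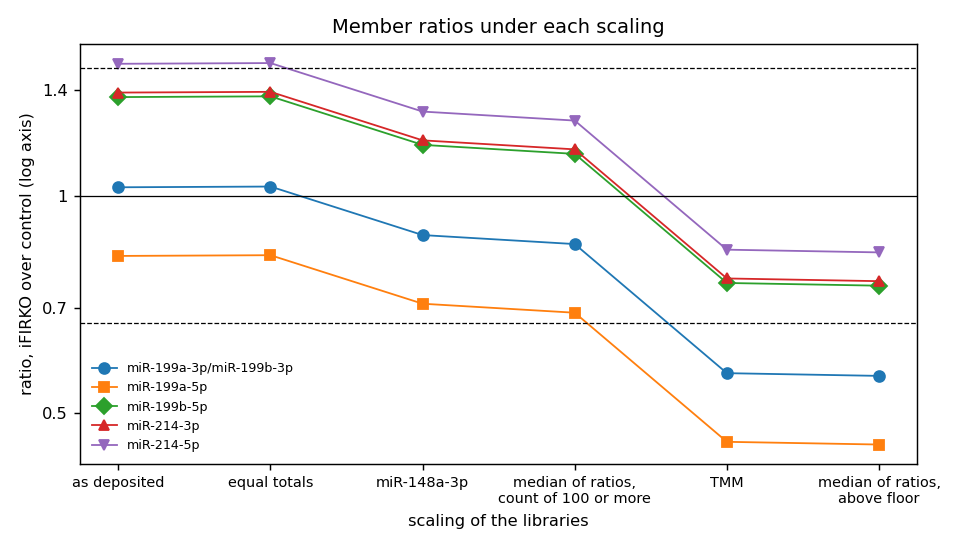
Ratio of iFIRKO over control (log axis) for each entry as deposited and under 5 other scalings, each of which moves all entries by 1 common factor. Dashed lines mark 1.5-fold in either direction. The order of the entries is fixed, all 5 lie below 1 with TMM and with the median of ratios above the floor, and miR-199a-5p lies below 1 throughout.

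A shared seed could be looked for only in the 1592 of 1847 listed entries that had a sequence in RefSeq. Among these, 1 other miRNA carried the seed of a matched member. miR-761 shares the seed of miR-214-3p but has a different body, as its sequence shows with the seed in capitals.
miR-761: gCAGCAGGgugaaacugacaca
It had 72 counts in the control-labelled library and 80 in the iFIRKO-labelled library, or 18.9 and 35.8 CPM. The ratio was 1.90 as deposited (95% interval 1.36 to 2.65) and 1.05 with TMM scaling. The deposited ratio was close to the median of its class from 10 to 100 counts (2.01), and 604 of the 1317 miRNAs of that class above the floor in both libraries had a lower ratio. Its interval overlaps that of miR-214-3p.

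Other miRNAs known from fibroblasts, smooth muscle and related mesenchymal cells were examined as a list of 13, and all 13 were above the floor in both libraries. As deposited 6 were higher and 7 were lower, none of them by over 1.5-fold, whereas with TMM scaling all 13 were over 1.5-fold lower. On the deposited scale their median log2 ratio was -0.0082, compared with 0.45 for the miR-199 and miR-214 entries. These sets differ in abundance, along which ratios changed. Most of the list averaged more than 1000 counts, a class with a median log2 ratio of -0.07. By contrast, miR-199b-5p, miR-214-3p and miR-214-5p averaged 100 to 300 counts, a range with a median log2 ratio of 0.69. The part of abundance in the difference between the sets was not tested. The list ranged from miR-145a-5p and miR-143-3p, the smooth muscle cluster, with ratios of 0.726 (95% interval 0.676 to 0.780) and 0.762 (0.747 to 0.778), to miR-140-3p, known from cartilage, with 1.19 (1.18 to 1.20). miR-22-3p had 0.746 (0.714 to 0.779), and miR-503-5p and miR-497a-5p had 1.12 (1.05 to 1.20) and 1.17 (1.07 to 1.27). In sum the list made up 5.07% of the control-labelled library and 5.11% of the iFIRKO-labelled library.

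Among miRNAs that reached a mean count of 100, the 3 whose ratio lay nearest to that of the 3p arm were miR-574-5p (1.024, 192 and 115 counts), miR-181a-5p (1.023, 2143 and 1283 counts) and miR-139-3p (1.033, 432 and 261 counts). They differed from it by 0.0074 or less on the log2 scale. This likeness rests on a single ratio from 2 libraries, and the intervals of all 3 include 1.

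Marker miRNAs of other sources of serum EVs moved between the same libraries. The 5 erythroid miRNAs summed to 2.10% of the control-labelled library and 1.19% of the iFIRKO-labelled library, and all 5 were lower as deposited, a direction that turns with the tables exchanged. The 4 hepatocyte miRNAs summed to 12.1% and 20.2%, and all 4 were higher as deposited, 1 of them by over 1.5-fold, and below 1 with TMM scaling. A single entry held most of this sum, with 417919 of 460346 counts in the control-labelled and 417108 of 451011 in the iFIRKO-labelled library. The summed shares in the libraries labelled control and iFIRKO were 4.86% and 4.21% for the 5 leukocyte miRNAs, 3.66% and 2.58% for the 2 endothelial ones, 1.09% and 0.997% for the 4 muscle miRNAs, and 0.177% and 0.207% for the 4 adipocyte miRNAs. As deposited, all leukocyte and endothelial miRNAs were lower. Directions were mixed for the muscle miRNAs (1 higher, 3 lower) and the adipocyte miRNAs (2 higher, 2 lower). None of these markers was at the floor. The part of these differences in the miR-199 and miR-214 ratios was not tested.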

How the data were processed

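Libraries were prepared from total RNA of serum EVs (QIAseq miRNA Library Kit) and run on the NextSeq500 platform, and the authors processed the reads with the GeneGlobe Data Analysis Center. The aligner, the miRNA release and any use of molecular identifiers are not given in the sources used here, and the processing notes name mm10. The deposited signal per miRNA is a count divided by 1 constant per library (3817902 for control, 2233498 for iFIRKO), since 100% of the values became whole within 0.01. The listed counts summed to less than this constant, by 0.676% of it for control and 0.907% for iFIRKO. What made up the rest is not stated. The lowest value stood for a count under 10, since no count from 2 to 9 occurred, and 10 counts equal 2.62 CPM in the control-labelled library and 4.48 CPM in the iFIRKO-labelled library.

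A ratio is the iFIRKO over the control value without a pseudocount. Its 95% interval is the exact Clopper-Pearson interval of the iFIRKO share of both counts, quotients have exact conditional intervals, levels exact Poisson intervals and shares Wilson intervals. Reads may be copies of 1 molecule, so all cover counting error only. A count model such as edgeR's test needs replicates and was not run. TMM factors came from edgeR 4.0.16 in R 4.3.3, and other values from Python 3.11.15 with scipy 1.17.1. Interval code was tested on simulated data. Quotients compare captured counts and not molecules in vesicles.

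The names, the lists and the tests were chosen with earlier results of these data known. The text names all members, miRNAs sharing a seed with one, the mesenchymal list, miR-148a-3p and the 3 nearest ratios. Alternatives were 5 scalings, 1 CPM added, the floor at 10 counts, filters at a mean count of 10 and 100, a 2-fold threshold, the listed sum as denominator and, chosen after the data were seen, the tables exchanged between the groups.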

Additional observations from a re-analysis of the deposited data

How the results depend on the processing

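No paired analysis was possible because there was 1 library in each group, and for the same reason no library could be left out. Equal totals and 1 CPM added left the ratios, medians and counts of members within counting error or within 1.5 times the value as deposited. The floor at 10 counts and the filters could not change them, since every member was above the floor and averaged more than 100 counts. The within-library quotients and the summed shares stayed within counting error under the settings that touch them, apart from the exchange of tables given last. The other scalings did not leave all member ratios within these bounds. With the median of ratios of miRNAs above the floor, the ratios were 0.564 (miR-199a-3p/miR-199b-3p), 0.453 (miR-199a-5p), 0.751 (miR-199b-5p), 0.762 (miR-214-3p) and 0.835 (miR-214-5p), and with TMM scaling 0.568, 0.457, 0.758, 0.769 and 0.842 in the same order, so that the 1 called ratio, of miR-214-5p, turned from higher to lower. Under both, 0 members were over 1.5-fold higher and 2 were lower. With the median of ratios restricted to mean counts of 100 or more, an alternative chosen after seeing the data, miR-199a-3p/miR-199b-3p was at 0.857 and miR-199a-5p at 0.689, and with miR-148a-3p at 0.882 and 0.709, and 0 members were over 1.5-fold higher. A 2-fold threshold also left 0. The median log2 ratio of the members was -0.41 with the median of ratios and -0.40 with TMM. For the other mesenchymal miRNAs it was -0.87 and -0.86, and -0.27 with miRNAs of at least 100 counts, and the number over 1.5-fold lower was 13, 13 and 3, and 3 with miR-148a-3p. For miR-761 and the 13 mesenchymal miRNAs taken singly, 53 of 98 recomputed ratios moved beyond their counting interval, all of them downward and under these 4 scalings. These shifts follow from 1 factor applied to every miRNA. With the deposited tables exchanged, also chosen after seeing the data, the ratios were 0.973, 1.21, 0.730, 0.720 and 0.657 in the order above, 0 members were over 1.5-fold higher and 1 was lower, and the median log2 ratio was -0.45. The quotients then changed 0.877-fold (miR-199 3p over 5p), 1.66-fold (miR-199a-5p over miR-199b-5p) and 0.740-fold (miR-214-3p over the 3p arm of miR-199), since each value is the inverse of the one as deposited. Depth limits the miR-214 arms and miR-199b-5p most, with 106 to 267 counts per library.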
